A study of Mus musculus with 12 samples.

Results

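The 10 genes described here encode granule proteases and receptors that mark mast cells, and they were followed in mouse colon tumours of bone marrow chimeras. They are Mcpt1, Mcpt2, Mcpt4, Mcpt9, Cma1, Tpsab1, Tpsb2, Cpa3, Kit and Ms4a2. They were taken by name as 10 of the 24062 genes in the count table, and all 10 passed the filter on low counts that left 15060 genes. The genes were chosen by their levels in earlier results of the same libraries, in which several of them were higher in tumours of St2-/- hosts with wild-type (WT) marrow than in those of WT hosts with WT marrow, or than in those of St2-/- hosts with St2-/- marrow. Those 2 differences, and the interaction built on them, are therefore given below as descriptions. No member's p is given for them, and nothing is read from their counts of genes under a threshold.

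Each group is named marrow => host. Irradiated hosts of the Balb/c strain, WT or St2-/-, received WT or St2-/- bone marrow, which gave 4 groups of 3 libraries: St2-/- => St2-/-, WT => St2-/-, St2-/- => WT and WT => WT. In every group, after 8 weeks of reconstitution, the mice received azoxymethane (AOM), a carcinogen that induces colon tumours, at 10 mg/kg once a week for 6 weeks. Tumours were excised 13 or 14 weeks after the last injection. All 4 groups thus share irradiation, transplantation and AOM, and no group without them was analysed here. The labels give 11 males and 1 female, which was WT => St2-/- replicate 3. Tissue mast cells of the host that survive irradiation would carry the host's genotype, and the share of donor cells was not measured in these data. The RNA came from whole tumours, so that fewer mast cells and less RNA per mast cell cannot be told apart.

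Mast cells arise from marrow progenitors and mature in tissues under KIT ligand, which binds the receptor tyrosine kinase encoded by Kit. They store proteases in granules and release them when antigen crosslinks IgE on the high-affinity IgE receptor, whose beta chain is encoded by Ms4a2. In mice, intraepithelial mucosal mast cells are known for the chymases of Mcpt1 and Mcpt2, and connective tissue mast cells for the chymases of Mcpt4 and Cma1 and the tryptases of Tpsb2 and Tpsab1. ST2, the product of Il1rl1, is the receptor for interleukin-33 and is carried by mast cells among other leukocytes.

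The gene counts of the 12 libraries summed to between 10293818 and 12962496. A count of 3 in a library, the floor used here, corresponded to 0.229 to 0.290 CPM, the unit used below, which is a count scaled to library size with edgeR's TMM factors. Il1rl1 measured 13.4, 7.91 and 10.7 CPM in St2-/- => St2-/- tumours, 11.9, 25.0 and 7.30 CPM in WT => St2-/-, 125, 36.5 and 193 CPM in St2-/- => WT, and 53.5, 132 and 275 CPM in WT => WT. Its level thus followed the host in every library, with no overlap between hosts. Sample numbers in the labels had 3 digits for St2-/- hosts and 5 digits for WT hosts, and the labels do not say whether these are separate cohorts. If they are, the effect of the host's genotype and that of its cohort cannot be told apart. The colon epithelial genes Epcam, Vil1, Krt20 and Car1, with the others of a list of 6, were detected, with a summed level of at least 1734 CPM. Summed levels of 10 smooth muscle genes varied widely within groups, at 259 to 562 CPM in St2-/- => St2-/-, 370 to 3844 CPM in WT => St2-/-, 550 to 3116 CPM in St2-/- => WT and 256 to 560 CPM in WT => WT.

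In GENCODE M21 on GRCm38, 5 of the 8 proteases lie within one stretch of chromosome 14. These are Cma1 (chr14:55941451-55944675, minus strand), Mcpt1 (chr14:56017971-56020384, plus), Mcpt9 (chr14:56026864-56030495, minus), Mcpt2 (chr14:56042041-56044642, plus) and Mcpt4 (chr14:56059629-56062313, minus). The tryptase genes Tpsab1 (chr17:25343245-25345562, minus) and Tpsb2 (chr17:25366305-25369098, plus) are neighbours on chromosome 17. Cpa3, a carboxypeptidase stored in the same granules, lies at chr3:20215620-20242181 (minus), Kit at chr5:75574916-75656722 (plus) and Ms4a2 at chr19:11615523-11623719 (minus).

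The promoters of Mcpt1 and Mcpt4 are shown because one gene stands for the mucosal and the other for the connective tissue class, and yet they were the most alike of the members' promoters. RefSeq entries (GRCm38.p6, 250 bases before to 50 after the start) matched 7 of the 10 genes and not Mcpt2, Tpsab1 or Tpsb2. Mcpt1 and Mcpt4 were identical at 247 of 305 aligned positions (81.0%), while all other pairs of members shared 40.2% to 50.8%. The capitals mark their longest common run, 53 bases, which begins 83 bases before the start in Mcpt1 (chr14:56017714-56018013, plus) and 87 bases before it in Mcpt4 (chr14:56062261-56062560, minus).
Mcpt1: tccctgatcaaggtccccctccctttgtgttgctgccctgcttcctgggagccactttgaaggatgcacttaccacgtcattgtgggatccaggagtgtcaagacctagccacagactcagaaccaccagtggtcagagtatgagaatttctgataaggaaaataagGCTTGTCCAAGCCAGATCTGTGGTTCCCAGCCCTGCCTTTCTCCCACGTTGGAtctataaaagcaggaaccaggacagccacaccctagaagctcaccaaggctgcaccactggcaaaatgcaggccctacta
Mcpt4: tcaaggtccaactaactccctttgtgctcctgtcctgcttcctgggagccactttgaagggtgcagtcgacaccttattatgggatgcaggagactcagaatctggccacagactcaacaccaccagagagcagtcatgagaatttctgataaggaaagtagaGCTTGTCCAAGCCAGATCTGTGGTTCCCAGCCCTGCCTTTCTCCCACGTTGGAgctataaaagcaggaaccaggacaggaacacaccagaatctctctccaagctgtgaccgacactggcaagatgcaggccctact

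The promoters of Cpa3 (chr3:20242132-20242431, minus) and Ms4a2 (chr19:11623670-11623969, minus) are shown because they were the only ones of the 7 to hold AGATAA, a form of the motif bound by GATA factors. The capitals mark AGATAA or its reverse complement.
Cpa3: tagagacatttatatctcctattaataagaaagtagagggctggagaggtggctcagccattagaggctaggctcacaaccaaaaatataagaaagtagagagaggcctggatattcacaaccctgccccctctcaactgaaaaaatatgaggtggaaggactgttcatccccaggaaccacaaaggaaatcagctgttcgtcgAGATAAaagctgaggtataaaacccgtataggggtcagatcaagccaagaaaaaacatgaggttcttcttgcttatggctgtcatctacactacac
Ms4a2: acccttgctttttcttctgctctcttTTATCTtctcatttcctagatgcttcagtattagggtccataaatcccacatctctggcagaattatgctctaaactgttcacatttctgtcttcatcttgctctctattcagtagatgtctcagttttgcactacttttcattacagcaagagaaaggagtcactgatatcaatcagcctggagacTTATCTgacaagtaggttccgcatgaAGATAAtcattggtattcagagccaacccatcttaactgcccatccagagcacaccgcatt

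Searched on both strands, AGATAA occurred once in Cpa3 and 3 times in Ms4a2, and it was present in 11.2% of the 32851 RefSeq mouse promoters of this length. TGATAA, a form added after the sequences had been read, occurred once each in Mcpt1 and Mcpt4, just upstream of the common run, and in 9.05% of all promoters. Either form was held by 18.6% of all promoters. CACATG and CACGTG, E-box forms that MITF can bind, occurred in 0 of the 7 members' promoters, against 14.2% and 7.15% of all promoters. These matches describe the letters of the windows and were not tied to binding.

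Per exon length, Mcpt1 and Mcpt2 had the highest medians of the 10, although Cma1 exceeded Mcpt2 in St2-/- => WT replicate 2 (12.3 against 8.16 CPM per kb). The 8 proteases together took 0.00390% to 0.237% of a library's gene counts, and Mcpt1 alone held 41.2% to 58.4% of that share. Scaled to exon length, Mcpt1 had a median over the 12 libraries of 89.5 CPM per kb and Mcpt2 of 43.9 CPM per kb. The next were Cma1 at 12, Cpa3 at 4.92, Tpsb2 at 4.68 and Kit at 3.28 CPM per kb. Mcpt4 at 2.19, Tpsab1 at 1.48, Ms4a2 at 1.17 and Mcpt9 at 0.732 CPM per kb were lowest. Mcpt1 exceeded Mcpt2, and Mcpt2 exceeded Tpsb2, in 12 of 12 libraries. Below them the order was not fixed. By the mean, Tpsb2 came next at 15.0 and Cma1 after it at 14.7 CPM per kb, yet Tpsb2 exceeded Cma1 in 4 of 12 libraries. Tpsab1 exceeded Mcpt4 in 5 libraries, and Ms4a2 exceeded Mcpt9 in 7.

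**Figure D1:**
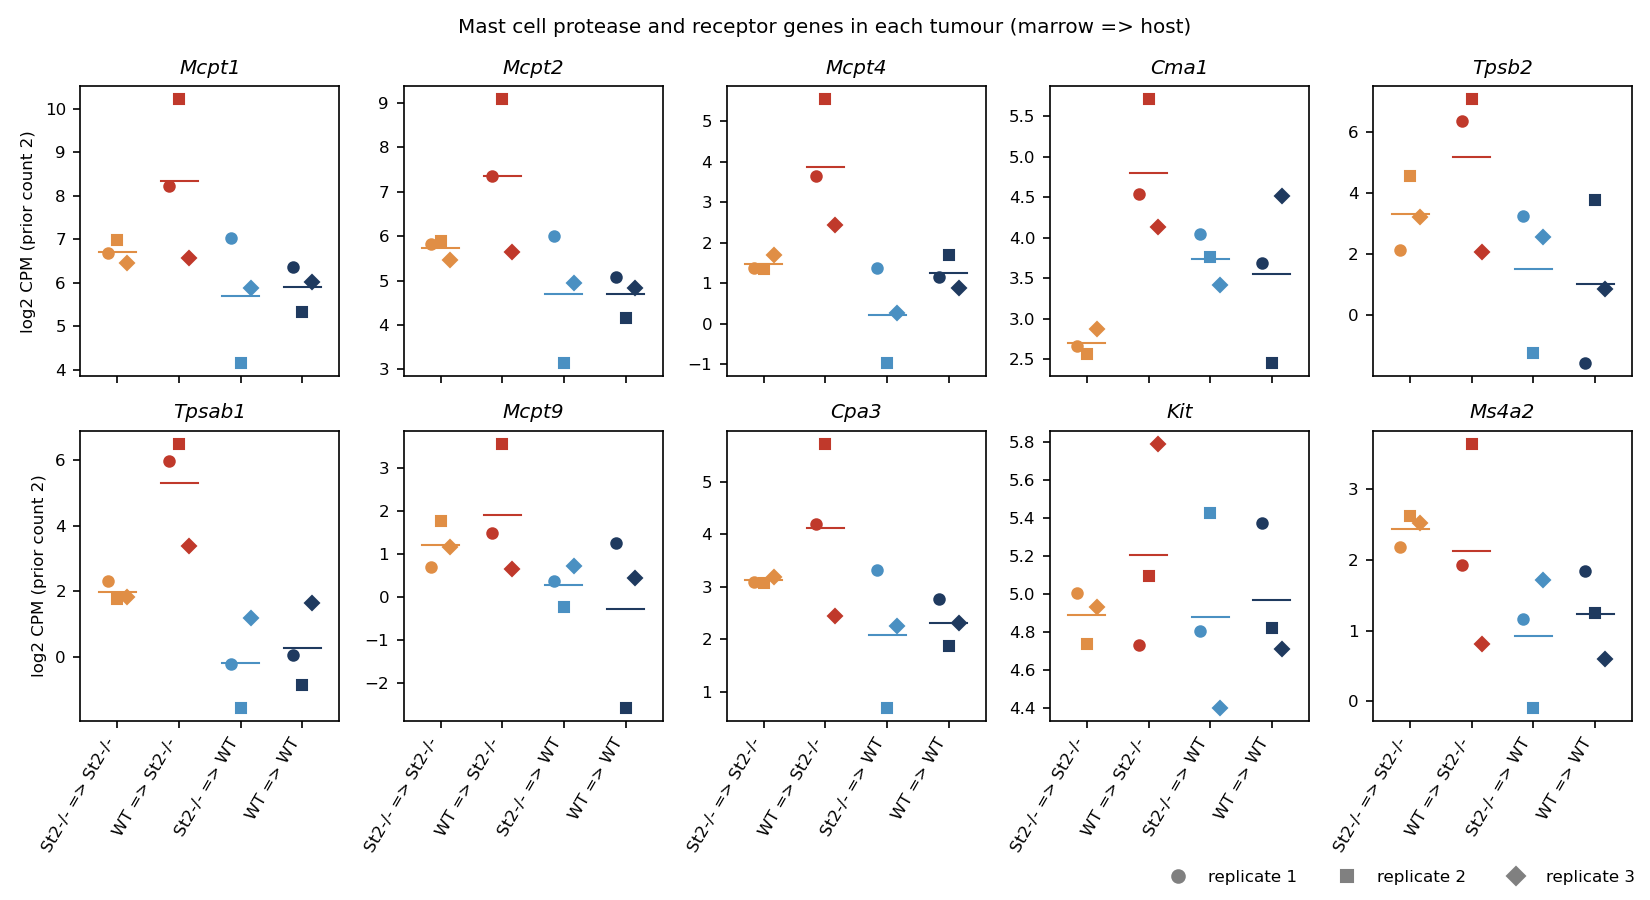
Log2 CPM of the 10 genes in each library (y axis, 1 panel per gene) by marrow => host group (x axis), with symbols for the replicate number and a line at the group mean. WT => St2-/- replicate 2 is the highest point in 9 panels, and WT => St2-/- replicate 3 is the highest for Kit.

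Mcpt1 measured 102, 126 and 87.1 CPM in St2-/- => St2-/- tumours, 300, 1189 and 94.3 CPM in WT => St2-/-, 129, 17.6 and 58.9 CPM in St2-/- => WT, and 82.1, 39.7 and 64.5 CPM in WT => WT. The values of WT => St2-/- lay above all those of WT => WT, but they spread widely among themselves, and replicate 3 of that group fell within the range of St2-/- => St2-/-. Mcpt2 measured 56.8, 59.4 and 43.7 CPM in St2-/- => St2-/-, 164, 544 and 49.6 CPM in WT => St2-/-, 64.0, 8.66 and 30.9 CPM in St2-/- => WT, and 33.7, 17.7 and 28.5 CPM in WT => WT. Its highs and lows fell in the same libraries as those of Mcpt1. The ratio of Mcpt1 to Mcpt2 stayed between 1.80 and 2.43 in all 12 libraries, while Mcpt1 itself ranged from 17.6 to 1189 CPM. No 50-base stretch of either annotated transcript is shared with another annotated gene, so an exact read of one does not match the other.

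Mcpt4, a connective tissue chymase, measured 2.45, 2.37 and 3.09 CPM in St2-/- => St2-/-, 12.3, 46.3 and 5.27 CPM in WT => St2-/-, 2.41, 0.343 and 1.04 CPM in St2-/- => WT, and 2.06, 3.09 and 1.67 CPM in WT => WT. All 3 libraries of WT => St2-/- exceeded the other 9. Cma1, the alpha chymase of the same mast cell class, measured 6.19, 5.78 and 7.19 CPM in St2-/- => St2-/-, 23.1, 52.1 and 17.4 CPM in WT => St2-/-, 16.3, 13.5 and 10.5 CPM in St2-/- => WT, and 12.7, 5.31 and 22.8 CPM in WT => WT. Here the lowest mean was that of St2-/- => St2-/-, which lay below every library of WT => St2-/- and St2-/- => WT. Cma1 thus did not keep a fixed proportion to Mcpt4, and its ratio to Mcpt4 ran between 1.13 and 39.3. Of the 50-base windows of these transcripts, 5.48% of those of Mcpt4 are shared with Cma2 and 5.38% of those of Cma1 with Gm48934, so a small part of their reads is uncertain.

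Tpsab1, a tryptase, measured 4.81, 3.24 and 3.4 CPM in St2-/- => St2-/-, 63.3, 90.5 and 10.3 CPM in WT => St2-/-, 0.689, 0.171 and 2.08 CPM in St2-/- => WT, and 0.859, 0.386 and 2.95 CPM in WT => WT. Its groups separated by host, with WT => St2-/- above St2-/- => St2-/- and both above all 6 tumours of WT hosts. Tpsb2, the neighbouring tryptase gene, measured 4.28, 23.5 and 9.20 CPM in St2-/- => St2-/-, 81.4, 134 and 4.04 CPM in WT => St2-/-, 9.39, 0.257 and 5.72 CPM in St2-/- => WT, and 0.172, 13.5 and 1.67 CPM in WT => WT. All groups overlapped for Tpsb2, and the ratio of Tpsb2 to Tpsab1 ran between 0.200 and 35.0. The lowest values of both tryptase genes lie at or under the floor of 3 counts. Mcpt9, a further chymase of the chromosome 14 cluster, was lowest of the 10 and measured 1.45, 3.24 and 2.09 CPM in St2-/- => St2-/-, 2.62, 11.7 and 1.41 CPM in WT => St2-/-, 1.12, 0.686 and 1.47 CPM in St2-/- => WT, and 2.23, 0 and 1.19 CPM in WT => WT. The count of 0 in WT => WT replicate 2 allows a level of up to 0.290 CPM, and 18.8% of its windows are shared with Cma2.

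Both protease classes were present in every tumour, and the mucosal class exceeded the connective tissue class in 12 of 12, also when each gene was scaled to exon length (ratio 1.99 to 14.6). Without length scaling, the mucosal sum of Mcpt1 and Mcpt2 was 159, 186 and 131 CPM in St2-/- => St2-/-, 464, 1733 and 144 CPM in WT => St2-/-, 193, 26.2 and 89.8 CPM in St2-/- => WT, and 116, 57.4 and 93.0 CPM in WT => WT. The connective tissue sum of Mcpt4, Cma1 and Tpsb2 was 12.9, 31.7 and 19.5 CPM in St2-/- => St2-/-, 117, 232 and 26.7 CPM in WT => St2-/-, 28.1, 14.1 and 17.3 CPM in St2-/- => WT, and 14.9, 21.9 and 26.1 CPM in WT => WT. Both sums were highest in WT => St2-/- replicates 2 and 1, while replicate 3 lay near the other groups.

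The ratio of the classes overlapped between all groups. The mucosal to connective tissue ratio was 12.3, 5.87 and 6.71 in St2-/- => St2-/-, 3.97, 7.45 and 5.38 in WT => St2-/-, 6.88, 1.87 and 5.20 in St2-/- => WT, and 7.75, 2.62 and 3.56 in WT => WT. On the log2 scale its mean was 2.97 ± 0.57 in St2-/- => St2-/-, 2.44 ± 0.45 in WT => St2-/-, 2.02 ± 0.99 in St2-/- => WT and 2.06 ± 0.81 in WT => WT (SD, n = 3 each). The high protease levels of WT => St2-/- replicates 1 and 2 thus included both classes, and these replicates stood on either side of their group's mean ratio. The ratio was computed over members and was given no test.

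**Figure D2:**
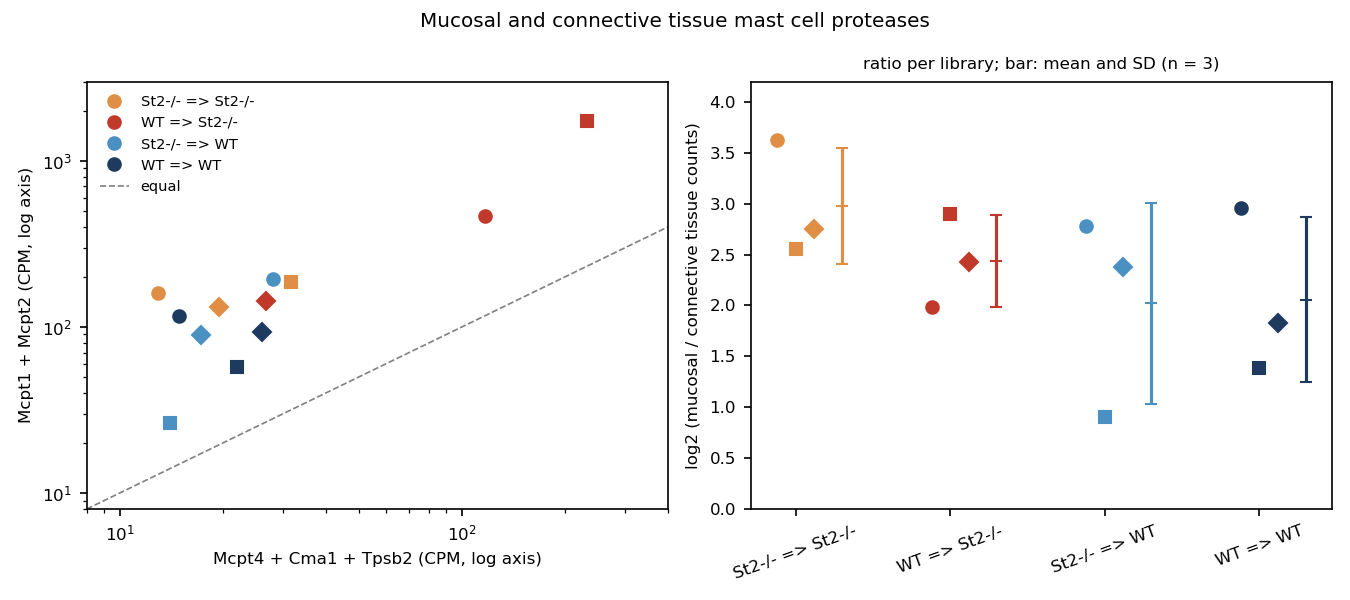
Left, the summed CPM of Mcpt1 and Mcpt2 (mucosal) and of Mcpt4, Cma1 and Tpsb2 (connective tissue) in each library on log axes, with the line of equality. Right, the log2 ratio of the sums in each library by group, with the group mean and SD. All 12 libraries lie on the mucosal side of equality, and the ratios of the 4 groups overlap.

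Cpa3 measured 8.41, 8.31 and 8.97 CPM in St2-/- => St2-/-, 18.3, 52.8 and 5.27 CPM in WT => St2-/-, 9.82, 1.46 and 4.60 CPM in St2-/- => WT, and 6.61, 3.48 and 4.78 CPM in WT => WT. It followed the mucosal chymases, and the ratio of Mcpt1 to Cpa3 ran between 9.72 and 22.5. Ms4a2 measured 4.36, 6.01 and 5.57 CPM in St2-/- => St2-/-, 3.64, 12.3 and 1.58 CPM in WT => St2-/-, 2.07, 0.772 and 3.12 CPM in St2-/- => WT, and 3.43, 2.22 and 1.35 CPM in WT => WT. Its St2-/- => St2-/- libraries all lay above the 6 tumours of WT hosts, while those of WT => St2-/- spread between 1.58 and 12.3 CPM. Fcer1a, the alpha chain of the same receptor and not one of the 10, measured 2.60, 2.69 and 2.71 CPM in St2-/- => St2-/-, 4.82, 16.4 and 1.14 CPM in WT => St2-/-, 2.50, 0.600 and 1.39 CPM in St2-/- => WT, and 1.72, 1.35 and 1.75 CPM in WT => WT. Other mast cell genes outside the 10 did not all follow this order. Fcer1g averaged 7.52 CPM in WT => St2-/- and 22.7 CPM in WT => WT. It averaged 13.4 CPM in St2-/- => St2-/- and 12.4 CPM in St2-/- => WT. Hdc averaged 50.9 CPM in St2-/- => WT (SD 72.1 CPM) and 31.9 CPM in WT => St2-/-. Gata2 averaged 54.0 CPM in WT => St2-/- and 14.4 CPM in WT => WT.

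Kit showed no high in WT => St2-/- replicates 1 and 2, where the proteases peaked. It measured 31.9, 26.5 and 30.4 CPM in St2-/- => St2-/-, 26.4, 34.0 and 55.2 CPM in WT => St2-/-, 27.8, 42.8 and 21.0 CPM in St2-/- => WT, and 41.3, 28.1 and 26.0 CPM in WT => WT. The groups overlapped throughout. The highest Kit levels were in WT => St2-/- replicate 3, which was the lowest of its group for 8 of 8 proteases, and in St2-/- => WT replicate 2, which was so for 7 of 8. The next highest, WT => WT replicate 1 at 41.3 CPM, was the lowest of its group for 1 of 8. Kit is known also from interstitial cells of Cajal, the pacemaker cells of gut muscle, whose marker Ano1 measured 63.9 to 242 CPM. Across the 12 libraries, Kit and Ano1 had Pearson's r = 0.257 (permutation p = 0.419, adjusted over 6 gene pairs 0.502) and Spearman's rho = 0.168 (permutation p = 0.604, adjusted 0.725). Without the 2 libraries farthest from the median of Kit, r was -0.0215. Within St2-/- hosts r was 0.148 (exact permutation p = 0.771, n = 6), and within WT hosts it was 0.363 (exact permutation p = 0.551, n = 6).

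Correlations among the members are given without p, because the genes were chosen by their levels in these same libraries. The pairs below also entered the adjustment over 6 gene pairs given for Kit and Ano1. Over 12 libraries in log2 CPM, Mcpt1 and Mcpt2 had r = 0.996 and rho = 0.993, and r was 0.997 in St2-/- hosts and 0.991 in WT hosts. Mcpt1 and Mcpt4 had r = 0.923 and rho = 0.685, with r = 0.946 in St2-/- hosts and 0.707 in WT hosts, and r was 0.682 without the 2 libraries farthest from the median of Mcpt1. Mcpt4 and Cma1 had r = 0.562 and rho = 0.294 over all 12, with r = 0.973 in St2-/- hosts and -0.258 in WT hosts, and r was 0.310 without the 2 libraries farthest from the median of Mcpt4. The difference between hosts was not tested. Ms4a2 and Cpa3 had r = 0.831 and rho = 0.685, and r dropped to 0.487 without the 2 libraries farthest from the median of Ms4a2, so that it rests largely on them. Kit and Cpa3 had r = -0.160 and rho = -0.0490, with r = -0.314 in St2-/- hosts and -0.364 in WT hosts, and r was 0.325 without the 2 libraries farthest from the median of Kit. All pairs share the same libraries and the same depth scaling.

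**Figure D3:**
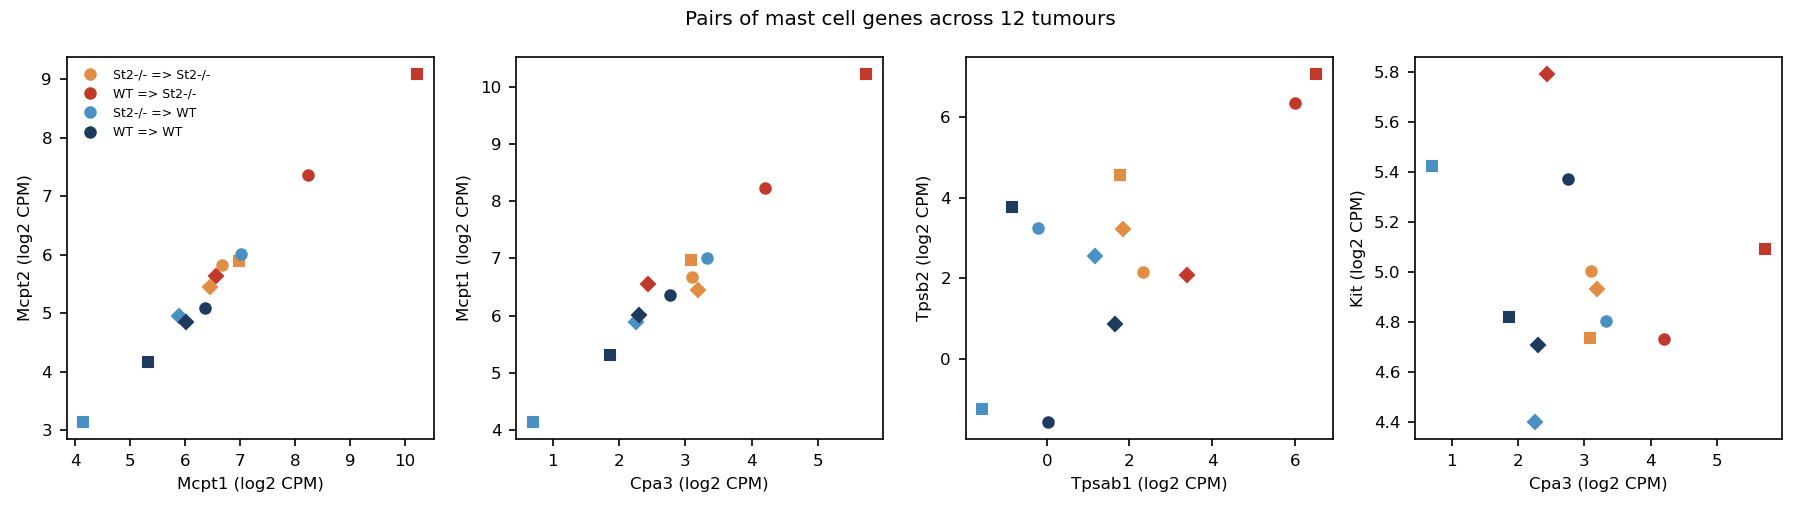
Log2 CPM of 4 gene pairs in the 12 libraries, coloured by marrow => host group. Mcpt1 follows Mcpt2 and Cpa3 closely (r = 0.996 and 0.986), Tpsab1 and Tpsb2 scatter more (r = 0.720), and Kit shows little relation to Cpa3 (r = -0.160).

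By the rule that names the genes most like Mcpt1, Mcpt4, Cpa3 and Kit (Pearson's r over the 12 libraries among all genes tested), other members and further mast cell genes came first for all but Kit. For Mcpt1 the closest were Mcpt2 (0.996), Cpa3 (0.986), Fcer1a (0.960), Alox5 (0.950), which encodes the lipoxygenase that starts leukotriene synthesis, and Ctdp1 (0.924). For Cpa3 they were Mcpt1 (0.986), Mcpt2 (0.983), Fcer1a (0.977), Alox5 (0.966) and Tiprl (0.907). Both lists begin with the same set of mast cell genes, which largely follows from the r of 0.986 between Mcpt1 and Cpa3. For Mcpt4 they were Mcpt1 (0.923), Mcpt2 (0.917), Cma2 (0.911), Cpa3 (0.900) and Nmt2 (0.888). For Kit they included Fgfr3 (0.885), Olfr78 (0.879), Gstm2 (0.875) and Clps (0.869), and none of the 10.

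The first comparison asked what the loss of St2 in the host went with when the marrow was WT, and it is one of those that chose the genes. The log2 fold change of WT => St2-/- over WT => WT was 5.25 for Tpsab1 (SE 0.98), 3.85 for Tpsb2 (SE 1.5), 3.24 for Mcpt2 (SE 0.84), 3.22 for Mcpt4 (SE 0.80) and 3.09 for Mcpt1 (SE 0.88). It was 2.36 for Cpa3 (SE 0.78), 2.17 for Mcpt9 (SE 1.01), 1.32 for Ms4a2 (SE 0.71), 1.18 for Cma1 (SE 0.50) and 0.28 for Kit (SE 0.31). All 10 lay above 0, with a median of 2.72 against 0.0084 over all genes tested. Of the 10, 0 passed an adjusted p under 0.05 in edgeR's quasi-likelihood test, where 0.159% of all genes did. At an unadjusted p under 0.05 there were 7 (16.7% of all genes), and with DESeq2's adjusted p there were 5 (4.95% of all genes). The WT => St2-/- libraries of Mcpt1, Mcpt2, Mcpt4 and Tpsab1 lay wholly above those of WT => WT, which held for 7.84% of all genes. Nothing is read from these counts, since the contrast chose the genes.

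The size of that difference moved with the method and with 1 library. Limma-voom with quality weights gave 1.39 for Mcpt1, 2.19 for Mcpt4, 3.18 for Tpsab1, 0.93 for Cpa3 and 0.18 for Cma1. Its value for Kit was larger than edgeR's, at 0.69. Without WT => St2-/- replicate 2, the log2 fold change was 1.67 for Mcpt1, 2.00 for Mcpt2, 1.95 for Mcpt4, 0.80 for Mcpt9, 1.25 for Cpa3, 0.57 for Cma1, 0.16 for Ms4a2, 0.36 for Kit, 4.69 for Tpsab1 and 3.07 for Tpsb2. All 10 values stayed above 0. Without replicate 3, the only female, it was 3.58 for Mcpt1, 5.74 for Tpsab1 and -0.08 for Kit. Smooth muscle genes were also higher in this comparison. All 10 of that list lay above 0 in this comparison, with a median of 2.44, and their mean level was 4.65, 8.06 and 6.96 log2 CPM in WT => St2-/-, against 3.91, 4.75 and 5.19 log2 CPM in WT => WT. With that score as a covariate the log2 fold change was 5.26 for Tpsab1, 2.21 for Mcpt1, 2.22 for Mcpt4, 1.66 for Cpa3, 0.58 for Cma1 and -0.01 for Kit. WT => St2-/- replicate 2, with the most smooth muscle of its group, had the highest level of all 8 proteases. WT => St2-/- replicate 1, with the least smooth muscle of its group, had the second highest level of 7 of the 8 proteases. A link between muscle content and the proteases was not tested.

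The second comparison concerned St2 in the marrow of St2-/- hosts, and it too was used in choosing the genes. The log2 fold change of St2-/- => St2-/- over WT => St2-/- was -3.84 for Tpsab1 (SE 0.90), -3.01 for Mcpt4 (SE 0.78), -2.57 for Tpsb2 (SE 1.40), -2.33 for Mcpt1 (SE 0.85), -2.27 for Cma1 (SE 0.52) and -2.24 for Mcpt2 (SE 0.80). It was -1.57 for Cpa3 (SE 0.75), -1.21 for Mcpt9 (SE 0.96), -0.38 for Kit (SE 0.31) and -0.14 for Ms4a2 (SE 0.68). All 10 lay below 0, with a median of -2.26 against -0.0094 over all genes. In edgeR 0 of the 10 were called and 0% of all genes, 5 had an unadjusted p under 0.05 (4.05% of all genes), and DESeq2 called 2 (0.093% of all genes). Mcpt4, Tpsab1 and Cma1 did not overlap, as did 4.23% of all genes. Since this contrast also chose the genes, its counts are a description and nothing is read from them. Without WT => St2-/- replicate 2 the values were -0.90 for Mcpt1, -1.73 for Mcpt4, -3.26 for Tpsab1, -1.66 for Cma1 and -0.46 for Cpa3, and those of Mcpt9 and Ms4a2 turned to 0.16 and 1.02. Limma-voom with quality weights gave -0.79 for Mcpt1, -1.57 for Mcpt4, -2.43 for Tpsab1, -0.08 for Cpa3 and 1.09 for Ms4a2. Its value for Kit was farther from 0 than edgeR's, at -0.57. The smooth muscle list again lay on the same side for all 10 genes, with a median of -2.34, and with its score as a covariate the value was -3.85 for Tpsab1, -2.04 for Mcpt4, -1.47 for Mcpt1, -0.92 for Cpa3 and 0.05 for Ms4a2.

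**Figure D4:**
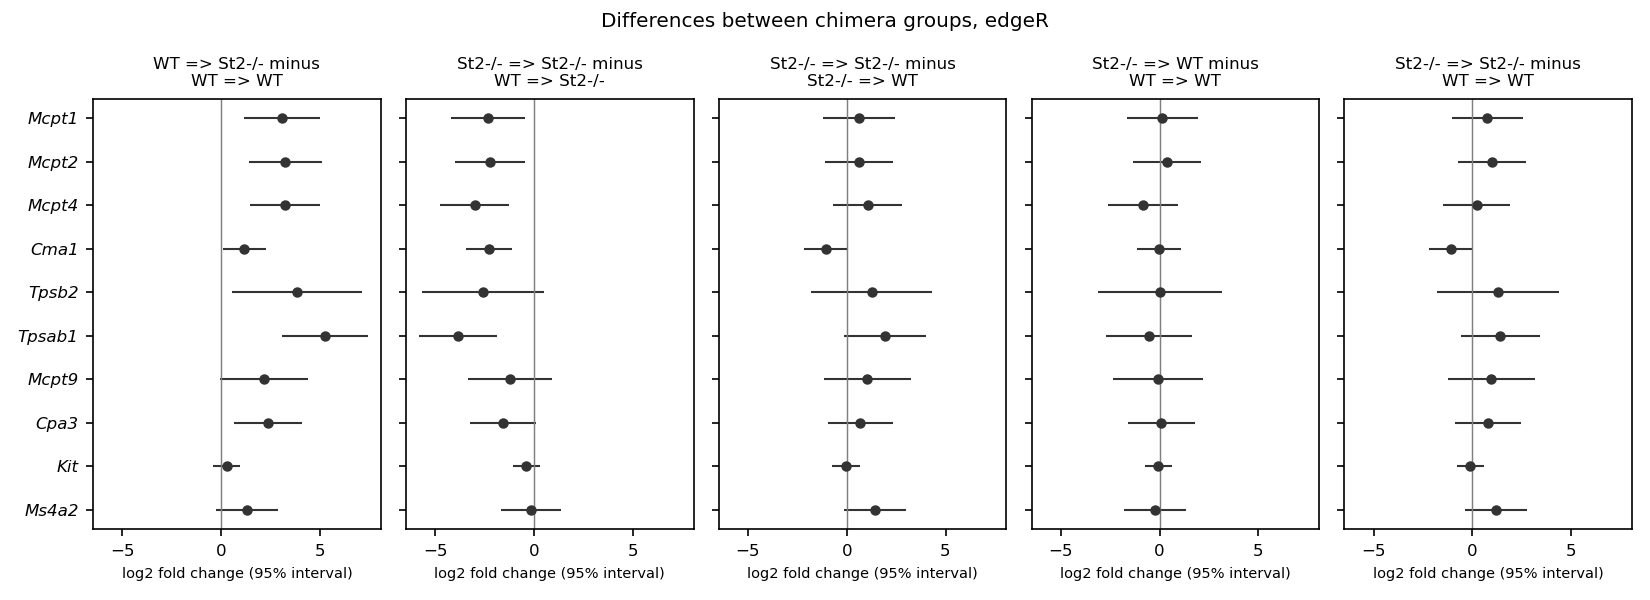
Log2 fold changes of the 10 genes with 95% intervals from edgeR, 1 panel for each of 5 comparisons between groups. The first 2 comparisons chose the genes and are shown as a description, so nothing is read from which of their intervals include 0. In WT => St2-/- over WT => WT the intervals of Mcpt9, Kit and Ms4a2 include 0, in St2-/- => St2-/- over WT => St2-/- those of Mcpt9, Tpsb2, Cpa3, Kit and Ms4a2 do, and in the other 3 comparisons those of all 10 do.

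The remaining comparisons were not themselves used to choose the genes, although they share libraries with those that were. Among them, St2-/- => St2-/- over WT => WT is also the sum of the differences that chose the genes. With St2-/- marrow, the loss of St2 in the host went with differences that did not pass the test. The log2 fold change of St2-/- => St2-/- over St2-/- => WT was 0.62 for Mcpt1 (SE 0.82, edgeR adjusted p = 0.78) and 0.63 for Mcpt2 (SE 0.78, adjusted p = 0.762), with a 95% interval for Mcpt1 of -1.18 to 2.42. It was 1.05 for Mcpt4 (SE 0.79, edgeR adjusted p = 0.596), 1.95 for Tpsab1 (SE 0.94, adjusted p = 0.431) and 1.26 for Tpsb2 (SE 1.39, adjusted p = 0.731). Cma1 ran the other way at -1.07 (SE 0.51, edgeR adjusted p = 0.428). The receptors measured 1.41 for Ms4a2 (SE 0.71, edgeR adjusted p = 0.445) and -0.04 for Kit (SE 0.31, adjusted p = 0.969, 95% interval -0.74 to 0.65). Cpa3 at 0.69 (adjusted p = 0.727) and Mcpt9 at 1.04 (adjusted p = 0.686) did not pass edgeR's test either. Of the 10, 8 lay above 0 and the median was 0.87, against 0.0031 over all genes. EdgeR called 0 of them and 0.0598% of all genes, and 0 had an unadjusted p under 0.05 where 12% of all genes did. Tpsab1 and Ms4a2 lay above without overlap (10.6% of all genes) and Cma1 below (12.7%). DESeq2 and limma-voom also called 0 of the 10, while they called 264 and 2004 of the 15060 genes tested. In limma-voom, Ms4a2 at 1.61 had an adjusted p of 0.0523. The smooth muscle list ran the opposite way here, with 10 of 10 below 0 and a median of -2.05, and with its score as a covariate the value was 1.36 for Mcpt1, 1.93 for Mcpt4, 1.30 for Cpa3 and -0.50 for Cma1, with an edgeR adjusted p of 0.332 or more for all 10 genes.

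The loss of St2 in the marrow of WT hosts left no separation in any member. The log2 fold change of St2-/- => WT over WT => WT was 0.14 for Mcpt1 (SE 0.81, edgeR adjusted p = 0.988, 95% interval -1.66 to 1.94), 0.37 for Mcpt2 (SE 0.78, adjusted p = 0.955) and -0.84 for Mcpt4 (SE 0.80, adjusted p = 0.878). The other 7 lay between -0.53 for Tpsab1 (edgeR adjusted p = 0.947) and 0.09 for Cpa3 (adjusted p = 0.99), and Kit was at -0.06 (SE 0.31, adjusted p = 0.986). In this comparison 4 members lay above 0 and 6 below, with a median of -0.04 against 0.014 over all genes. EdgeR called 0 of the 10 and 0% of all genes, 0 had an unadjusted p under 0.05 (6.04% of all genes), and 0 were higher without overlap (4.9%). DESeq2 and limma-voom also called 0 of the 10, and 0 of all genes. The intervals of the proteases are wide, and differences of several-fold in either direction remain within them. In this comparison the smooth muscle list had a median log2 fold change of 2.22. With its score as a covariate the members ran from -1.74 for Mcpt4 to -0.07 for Tpsb2, with Mcpt1 at -0.62. The edgeR adjusted p was then 0.863 or more for all 10 genes. A link between muscle content and the members was not tested.

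With St2 lost in both host and marrow, the members lay mostly above WT => WT without passing the test. This difference is the sum of the 2 that chose the genes, so its tests and counts are not independent of that choice. The log2 fold change of St2-/- => St2-/- over WT => WT was 0.76 for Mcpt1 (SE 0.82, edgeR adjusted p = 0.696), 1.00 for Mcpt2 (SE 0.79, adjusted p = 0.582), 1.42 for Tpsab1 (SE 0.90, adjusted p = 0.502) and 1.28 for Tpsb2 (SE 1.40, adjusted p = 0.7). It was 0.79 for Cpa3 (SE 0.76, edgeR adjusted p = 0.66), 1.18 for Ms4a2 (SE 0.71, adjusted p = 0.472) and -1.09 for Cma1 (SE 0.51, adjusted p = 0.373). Mcpt4 at 0.22 (adjusted p = 0.915), Mcpt9 at 0.96 (adjusted p = 0.686) and Kit at -0.10 (adjusted p = 0.898) did not pass edgeR's test either. Of the 10, 8 lay above 0 with a median of 0.88, against -0.014 over all genes. EdgeR called 0 of them and 0.0266% of all genes, and 0 had an unadjusted p under 0.05 (13.7% of all genes). Limma-voom with quality weights called 2, Ms4a2 at 1.73 (adjusted p = 0.0329) and Cma1 at -1.49 (adjusted p = 0.0393), where it called 11.4% of all genes. Mcpt1, Mcpt2, Tpsab1, Cpa3 and Ms4a2 lay above WT => WT without overlap, 5 of 10 against 12.2% of all genes. The spread within St2-/- => St2-/- differed between members. Cpa3 measured 8.56 ± 0.356 CPM in St2-/- => St2-/- and 4.96 ± 1.57 CPM in WT => WT, and Tpsb2 measured 12.3 ± 9.99 CPM in St2-/- => St2-/- and 5.12 ± 7.32 CPM in WT => WT (SD, n = 3 each). The smooth muscle list had a median of 0.05 in this comparison.

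The interaction sets the host difference under St2-/- marrow against that under WT marrow, and it contains both differences that chose the genes. Its log2 value was -3.30 for Tpsab1 (SE 1.31), -2.62 for Mcpt2 (SE 1.11), -2.59 for Tpsb2 (SE 1.96), -2.47 for Mcpt1 (SE 1.16), -2.25 for Cma1 (SE 0.71) and -2.17 for Mcpt4 (SE 1.10). It was -1.66 for Cpa3 (SE 1.07), -1.13 for Mcpt9 (SE 1.41), -0.32 for Kit (SE 0.44) and 0.09 for Ms4a2 (SE 0.99). Among the 10, 9 lay below 0, edgeR called 0 of them and 0% of all genes, and 3 had an unadjusted p under 0.05 (7.6% of all genes). These counts too are a description, from which nothing is read. The smooth muscle list had 10 of 10 below 0 and a median of -4.49. With its score as a covariate the value was -0.85 for Mcpt1, -1.20 for Mcpt2, -0.29 for Mcpt4, -0.36 for Cpa3, -1.09 for Cma1, -2.38 for Tpsb2 and -3.32 for Tpsab1. Without WT => St2-/- replicate 2 it was -1.05 for Mcpt1, -1.38 for Mcpt2, -0.89 for Mcpt4, -0.55 for Cpa3, -1.64 for Cma1, -1.81 for Tpsb2 and -2.73 for Tpsab1, and it was above 0 for Mcpt9 (0.24) and Ms4a2 (1.25). Limma-voom with quality weights gave -0.62 for Tpsab1, -0.92 for Mcpt1 and -0.25 for Cpa3. Its values for Kit and Ms4a2 were farther from 0 than edgeR's, at -0.68 and 0.97.

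Other genes of mast cells were also counted by direction. Of 21 such genes, which hold granule, receptor, enzyme and transcription factor genes, 17 were tested, and edgeR called 0 in every comparison. In WT => St2-/- over WT => WT, 12 lay above 0 and 5 below (median 0.36). In St2-/- => St2-/- over WT => St2-/-, 3 lay above 0 and 14 below (median -0.37), and for the interaction 4 lay above and 13 below (median -0.87). In St2-/- => St2-/- over St2-/- => WT, 8 lay above 0 and 9 below (median -0.0068), and over WT => WT there were 8 above and 9 below (median -0.09). In St2-/- => WT over WT => WT, 11 lay above 0 and 6 below (median 0.05). The most abundant were Srgn, Ndst2, Gata2 and Hdc, genes that other cells of the colon also use, and Mrgprb8 was at 0 in every library. Of 11 genes for signals on which mast cells grow or settle, 7 were tested and 0 were called by edgeR. Kitl, which encodes KIT ligand, averaged 264 ± 83.2 CPM in St2-/- => St2-/-, 221 ± 24.6 CPM in WT => St2-/-, 193 ± 54.2 CPM in St2-/- => WT and 187 ± 69.2 CPM in WT => WT (SD, n = 3 each). Its log2 fold change of St2-/- => St2-/- over WT => WT was 0.49 (SE 0.32, edgeR adjusted p = 0.51). Il3, a mast cell growth factor of mice, had no count in any library, and Il9 was counted in 2 libraries at 0.08 and 0.17 CPM.

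Basophils share some of these genes, and their own markers were low, with the highest sum in WT => St2-/-. The part of basophils in the members' levels was not tested. Mcpt8, Prss34 and Cd200r3 summed to 0.611 to 0.950 CPM in St2-/- => St2-/-, 0.703 to 2.26 CPM in WT => St2-/-, 0.343 to 1.29 CPM in St2-/- => WT and 0.258 to 0.676 CPM in WT => WT. The Cajal cell list of Ano1, Thbs4 and Etv1 summed to 191 to 272 CPM in St2-/- => St2-/-, 182 to 488 CPM in WT => St2-/-, 276 to 575 CPM in St2-/- => WT and 82.8 to 461 CPM in WT => WT, and its part in the level of Kit was not tested beyond the correlation with Ano1.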

How the data were processed

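RNA of 12 whole tumours was measured, with 3 biological replicates for each of 4 groups, in 50-base single-end TruSeq libraries of 1 sequencing lane, per the labels' protocols. The submitters' processing notes name TopHat, Bowtie2 and GRCm38 (mm10). The sources used here do not give how reads were assigned to genes, or on which annotation and strand. The deposited table holds raw counts for 24062 genes, besides 5 summary rows without a gene. Those rows, 49.8% to 59.6% of each library, were left out. Multiple alignments were 36.7% to 48.9%, so genes with close copies can be undercounted.

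Differences were fitted with edgeR 4.0.16 (R 4.3.3): filterByExpr (minimum count 10, leaving 15060 genes), TMM factors of 0.899 to 1.12, and a robust quasi-likelihood fit with 1 coefficient per group over all 12 libraries. Tests were two-sided, with Benjamini-Hochberg adjustment over all genes and a threshold of 0.05. Log2 CPM used a prior count of 2. Correlations used 100000 permutations over 12 libraries and exact permutation within hosts. Alternatives used DESeq2 1.42.0, limma 3.58.1 (voom), other scalings, filters, covariates and libraries left out. The edgeR step was tested on simulated data. Exon lengths and 50-base windows came from GENCODE M21. The named genes are the 10 members, the 5 most alike to Mcpt1, Mcpt4, Cpa3 and Kit, and members of the lists given; 1 gene that the rule names is not reported here. The members, lists and tests were chosen with earlier results of these data known. Floors and intervals from counts cover counting error only. The labels call the replicates biological but do not say whether each tumour came from its own mouse, so p-values measure the spread between these samples. Python 3.11.15 made the figures.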

Additional observations from a re-analysis of the deposited data

How the results depend on the processing

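The number of the 10 members called stayed at 0 under every alternative in all comparisons, except for 5 with DESeq2 in WT => St2-/- over WT => WT, 2 with DESeq2 in St2-/- => St2-/- over WT => St2-/-, and 2 with limma-voom in St2-/- => St2-/- over WT => WT. Nothing is read from those DESeq2 counts, since their comparisons chose the genes. Over all genes, edgeR called 24 in WT => St2-/- over WT => WT (A), 0 in St2-/- => St2-/- over WT => St2-/- (B), 9 in St2-/- => St2-/- over St2-/- => WT (C), 4 in St2-/- => St2-/- over WT => WT (E) and 0 for the interaction (F). For A, B, C, E and F, DESeq2 called 746, 14, 264, 457 and 93, and limma-voom 314, 4, 2004, 1722 and 4. For A, C and E the counts were 4, 14 and 8 with the smooth muscle score as a covariate, and 1, 2 and 8 when a fit held no other groups. Time after AOM as a covariate gave 5 for A and 4 for C. With both WT => St2-/- replicates 2 and 3 left out, the counts for A, B, E and F were 3, 1, 7 and 1. With 1 library left out they ran between 1 and 142 (A), 0 and 1 (B), 1 and 17 (C), and 1 and 11 (E).

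The replicate numbers did not pair the samples: of 18 same-numbered pairs, 5 had a correlation of deviations above 0.1 (range -0.440 to 0.308), and 1 of 12 libraries correlated best with its own number. With the replicate block the counts for A, C and E were 13, 1 and 1, with 0 members called.

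The class ratio as a mean of log2 CPM per class was 3.71 in St2-/- => St2-/-, 3.24 in WT => St2-/-, 3.36 in St2-/- => WT and 3.35 in WT => WT, and adding Tpsab1 to the connective tissue class made it 1.92 in WT => St2-/-. With 1 library left out, r ran between -0.320 and 0.0561 for Kit with Cpa3 and between 0.158 and 0.668 for Mcpt4 with Cma1. Both upper values came without St2-/- => WT replicate 2.

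Several values near 0 changed sign, and the cause was not tested. Kit in St2-/- => St2-/- over St2-/- => WT was 0.014 with limma-voom, 0.17 with weeks, 0.21 with the smooth muscle score and -0.25 to 0.30 with 1 library left out. Kit in St2-/- => St2-/- over WT => WT was 0.12 with limma-voom, 0.087 with weeks and -0.23 to 0.13 with 1 library left out. In St2-/- => WT over WT => WT, limma-voom gave 0.11 for Mcpt9, 0.11 for Kit and 0.12 for Ms4a2, DESeq2 gave -0.0092 for Tpsb2, and the smooth muscle score gave -0.62 for Mcpt1, -0.31 for Mcpt2, -0.075 for Tpsb2 and -0.56 for Cpa3. With 1 library left out in that comparison, the log2 fold change ran from -0.40 to 0.57 for Cma1, -0.71 to 0.51 for Cpa3, -0.41 to 0.16 for Kit, -0.70 to 0.57 for Mcpt1, -0.43 to 0.81 for Mcpt2, -0.64 to 0.81 for Mcpt9, -0.72 to 0.14 for Ms4a2, -1.71 to 0.63 for Tpsab1 and -0.76 to 2.44 for Tpsb2. Depth limits the genes of low count: the lowest count in a library was 0 for Mcpt9, 2 for Tpsab1, 2 for Tpsb2 and 4 for Mcpt4.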

Other observations

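Further genes of the protease clusters were read from the same table, chosen after their values had been seen. Cma2 shares 367 of the 50-base windows of Mcpt9 and 58 of those of Mcpt4. It measured 0.458, 0.396 and 0.773 CPM in St2-/- => St2-/- tumours, 1.27, 13.7 and 0.615 CPM in WT => St2-/-, 0.258, 0.0857 and 0.347 CPM in St2-/- => WT, and 0.429, 0.290 and 0.557 CPM in WT => WT. Most of its level in WT => St2-/- thus came from replicate 2. Mcpt-ps1, annotated as a pseudogene of the same family, measured 1.07, 1.5 and 1.24 CPM in St2-/- => St2-/-, 0.931, 10.5 and 0.791 CPM in WT => St2-/-, 0.775, 0.0857 and 0.607 CPM in St2-/- => WT, and 0.944, 0.483 and 1.27 CPM in WT => WT. It peaked in the same single library.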
